A study of Homo sapiens with 3 samples.

Results

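The inhibitor of apoptosis (IAP) genes were examined in SupB15-MR, multidrug resistant cells derived from the B-cell precursor acute lymphoblastic leukemia line SupB15, against SupB15 itself. The set held 8 genes: XIAP, BIRC2, BIRC3, BIRC5, BIRC6, BIRC7, NAIP and DIABLO. Probe sets were taken where the annotation of the array assigned them to 1 of these genes alone, which gave 19 of 54675 probe sets for 7 of the 19775 genes represented. BIRC3, which encodes the cellular IAP cIAP2, was not analysed here because no probe set was assigned to it in the table used.

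IAP proteins share the baculovirus IAP repeat (BIR), a zinc-binding fold, and several also carry a RING finger that makes them ubiquitin ligases. XIAP binds and inhibits caspases directly, while cIAP1 (BIRC2) and cIAP2 mainly ubiquitinate components of the TNF receptor complex. DIABLO (SMAC) is released from mitochondria during apoptosis and displaces IAPs from caspases, so it is the antagonist within the set. Survivin (BIRC5) chiefly acts in mitosis, and NAIP senses bacterial proteins for the inflammasome.

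Affymetrix arrays of SupB15-MR (n = 2, labelled biological replicates 1 and 2) were compared with SupB15 (n = 1). All 3 arrays were of cells in normal medium, and the labels call SupB15-MR multiple drug resistant and SupB15 drug sensitive. SupB15-MR cells had survived mitoxantrone, a topoisomerase inhibitor, in medium conditioned by the HS-5 bone marrow stromal line and were then kept without drug. The study speaks of its profiled SupB15-MR cells as clones, and the label of replicate 2 names the cells SupB15-MR5. Values are RMA expression values on the log2 scale, so that a difference of 1 is a 2-fold change.

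SupB15 had 1 array and no spread of its own, so the spread behind each test came from the SupB15-MR arrays alone, on 1 residual degree of freedom. The array medians were 5.27 and 5.28 in SupB15-MR and 5.08 in SupB15, a shift of 0.19. Both SupB15-MR arrays held the same value for 42.7% of all probe sets, and for 8 of the 19 IAP probe sets. For such probe sets limma gives a very small standard error, and an adjusted p there is no measure of culture-to-culture variation. Of 9 B-cell precursor markers with a probe set, 7 lay above the array median in each SupB15-MR array and all 9 in SupB15. The exceptions were VPREB1 (4.22 and 3.94 in SupB15-MR, 10.5 in SupB15) and CD34 (3.82 and 3.46 in SupB15-MR, 10.0 in SupB15). Above the array median were 1 of 5 T cell markers in each SupB15-MR array and 2 in SupB15, 1 of 5 myeloid markers in each SupB15-MR array and 2 in SupB15, and 1 of 7 stromal markers in each SupB15-MR array and 4 in SupB15. The part of these differences in the IAP values was not tested.

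The IAP genes did not move together. A probe set was called when its Benjamini-Hochberg adjusted p from limma was at most 0.05 and its mean difference at least 2-fold. All 19 IAP probe sets passed the filter on low values, and 1 rose (BIRC5), 2 fell (XIAP and NAIP) and 16 were not called. That is 15.8% called, beside 22.8% of the 46034 probe sets tested (13.1% higher and 9.71% lower). The overall split was 6021 higher and 4470 lower, and with each array centred on its median it was 5292 higher and 6151 lower. As a description with no test, 8 of the 19 differed from SupB15 by 2-fold or more in each SupB15-MR array, beside 33.2% of all probe sets tested (18.3% higher and 15.0% lower). Of these 8, 3 were higher (on BIRC5, BIRC7 and XIAP) and 5 lower (3 on XIAP and 2 on NAIP). The median difference over the 19 was -0.12, and 0 over all probe sets tested.

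The 5 probe sets that were 2-fold apart in both arrays but not called had adjusted p-values between 0.0547 and 0.0658 from limma. limma shrinks each variance toward a prior that was estimated over all kept probe sets, those with identical values included. With the variance prior estimated from probe sets whose SupB15-MR values differ, all 8 were called. With each array centred on its median, 6 of the 19 were called (1 higher and 5 lower), the added ones being XIAP 225858_s_at and 243026_x_at and NAIP 238446_at. When each gene was represented by its probe set of highest mean value, 1 of 7 genes was called (XIAP, lower), beside 20.9% of 17530 genes tested (11.8% higher and 9.05% lower). The gene that was called depended on the probe sets used. By the mean over all probe sets of a gene, XIAP was not called (-0.50, adjusted p = 0.0761 from limma), while BIRC5 was called higher (1.10, adjusted p = 0.0138) and NAIP lower (-1.32, adjusted p = 0.0467). The BIRC5 mean holds 1 probe set over 2-fold apart, 1555826_at (3.59), and others at 0.93, 0.32 and -0.46. On the probe set of highest mean value, 2 of 7 genes were 2-fold or more from SupB15 in each SupB15-MR array (BIRC7 higher and XIAP lower), beside 30.1% of genes tested (16.2% higher and 13.9% lower).

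**Figure D1:**
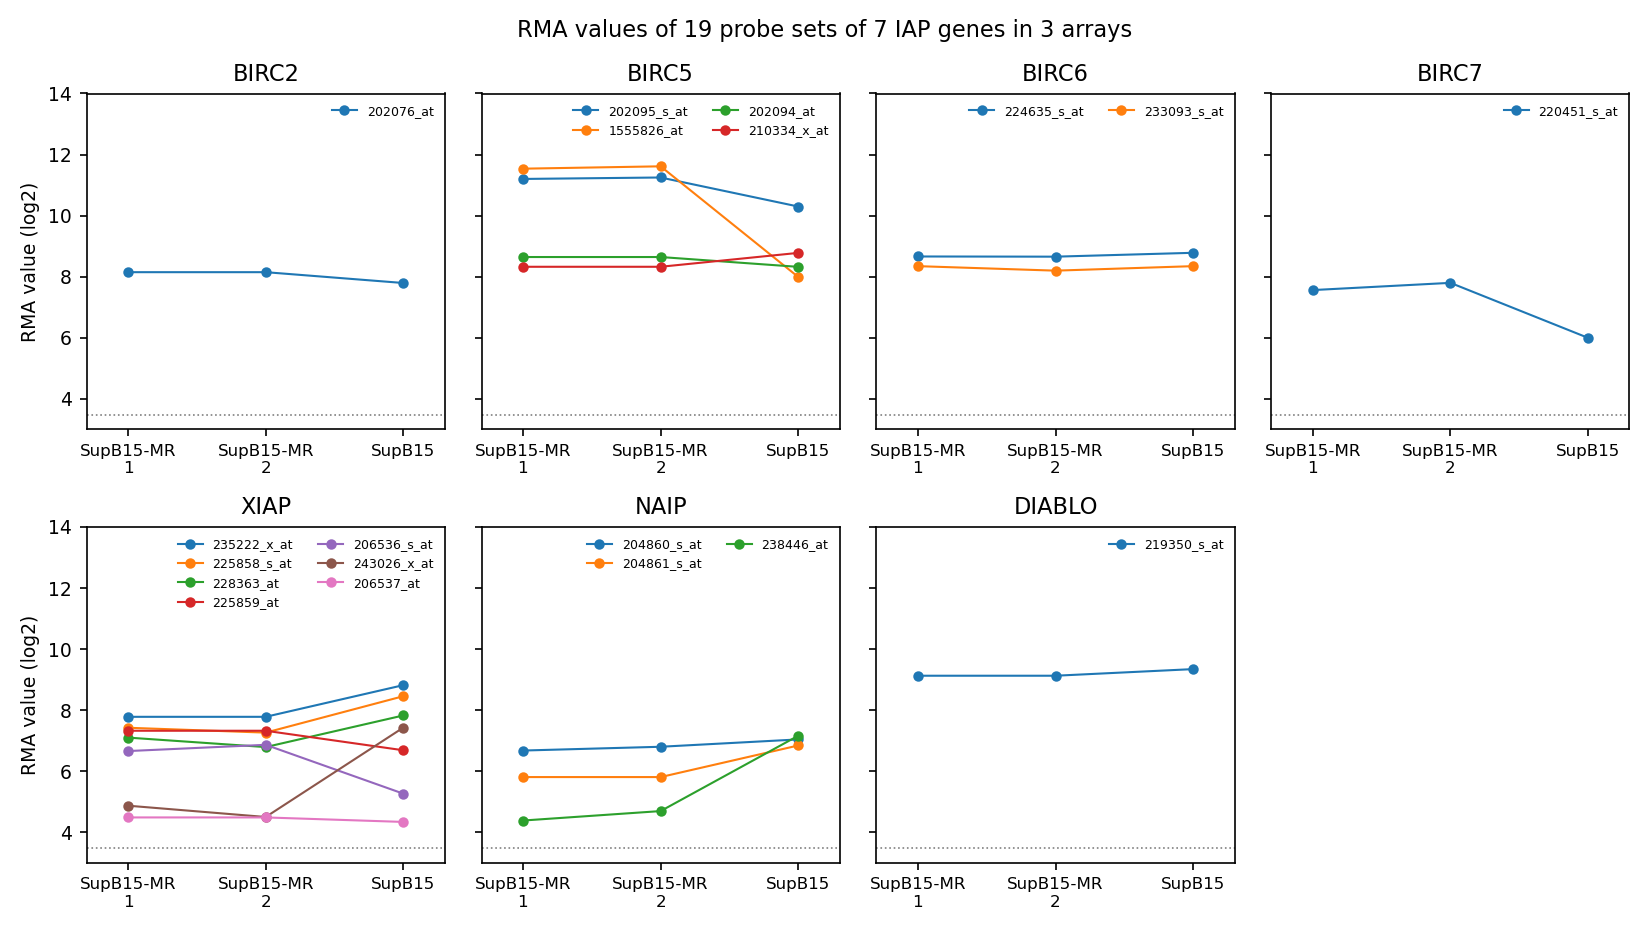
RMA values (log2, vertical axis) of the 19 probe sets of 7 IAP genes in SupB15-MR replicates 1 and 2 and in SupB15, with a line joining the values of 1 probe set and a dotted line at the 20th percentile of all values (3.47). The BIRC5 probe set 1555826_at lies at 11.5 and 11.6 in SupB15-MR and at 7.99 in SupB15, and the other 3 BIRC5 lines differ by less than 2-fold.

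XIAP, the caspase inhibitor, had probe sets with lower and with higher values in SupB15-MR, and 1 of its 7 was called. In each SupB15-MR array 3 of the 7 were 2-fold or more lower and 1 was 2-fold or more higher, and 3 were less far apart in at least 1 array. The probe set with the highest mean, 235222_x_at, had a value of 7.78 in both SupB15-MR arrays and 8.82 in SupB15. It fell, with a log2 difference of -1.04 and adjusted p = 0.000645 from limma (standard error 0.000612). At 2.05-fold lower it lay just past the threshold. Another, 225858_s_at, had 7.42 and 7.26 in SupB15-MR and 8.46 in SupB15, a difference of -1.11 (adjusted p = 0.0658 from limma). On 243026_x_at the values were 4.87 and 4.50 in SupB15-MR and 7.43 in SupB15. This difference, -2.75 with a standard error of 0.28, was the largest of the 7 and was not called (adjusted p = 0.0622 from limma). Lower values in both SupB15-MR arrays were also found on 228363_at, at 7.10 and 6.79, against 7.83 in SupB15.

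In the opposite direction, 206536_s_at read 6.66 and 6.86 in SupB15-MR and 5.26 in SupB15, a difference of 1.50 (adjusted p = 0.063 from limma). Probe set 225859_at had 7.32 in both SupB15-MR arrays and 6.69 in SupB15, a difference of 0.64 and under 2-fold. The annotation pairs 225859_at and 225858_s_at with the same source sequence, yet their differences were 0.64 and -1.11. The last, 206537_at, was near the lower end of the scale in all arrays, at 4.49 in both SupB15-MR arrays and 4.34 in SupB15. The mean difference over all 7 was -0.50. With probe sets whose names end in _s_at or _x_at left out, because they can match several transcripts, the differences were -0.88, 0.64 and 0.15. Probe sets of 1 gene that went 2-fold both ways were common here. They were found in 43.8% of the 128 genes with 7 probe sets, and the range of XIAP, 4.25, compares with a median range of 3.40 over those genes. RefSeq lists pseudogenes of XIAP, and signal from transcripts that share a probe's sequence cannot be told apart.

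The excess of signal at the 3′ end of a control transcript over its 5′ end, a measure of RNA integrity and of labelling, was larger in SupB15-MR for ACTB and not for GAPDH. On the log2 scale the 3′ probe set of ACTB exceeded the 5′ one by 2.59 and 2.43 in SupB15-MR and by 0.80 in SupB15, and that of GAPDH by -0.09 and -0.11 in SupB15-MR and 0.10 in SupB15. The part of this in the disagreement between the probe sets of XIAP, BIRC5 and NAIP was not tested.

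cIAP1, the product of BIRC2, is a RING ligase that keeps the NF-kappaB-inducing kinase NIK low and modifies RIPK1. BIRC2 had 8.15 in both SupB15-MR arrays and 7.79 in SupB15 on its only probe set. The difference of 0.35 was under 2-fold and was not called (adjusted p = 0.000901 from limma, on identical values). With the prior from differing probe sets the adjusted p was 0.146.

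Survivin, encoded by BIRC5, joins the chromosomal passenger complex that corrects kinetochore attachments, and its transcript peaks in G2 and M phase. The 4 probe sets of BIRC5 differed in the size of the difference and in its direction. Probe set 1555826_at had 11.5 and 11.6 in SupB15-MR and 7.99 in SupB15. It rose by 3.59 on the log2 scale, or 12.0-fold (standard error 0.0585, adjusted p = 0.00939 from limma). No other of the 19 IAP probe sets was called higher in this fit. The probe set with the highest mean, 202095_s_at, had 11.2 in both SupB15-MR arrays and 10.3 in SupB15. Its difference, 0.93 with a standard error of 0.036, was under 2-fold and so not called (adjusted p = 0.0238 from limma).

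Values on 202094_at were 8.64 in both SupB15-MR arrays and 8.32 in SupB15, a difference of 0.32. On 210334_x_at they were 8.32 in both SupB15-MR arrays and 8.78 in SupB15, a difference of -0.46. Of 4 BIRC5 probe sets 3 were higher in both SupB15-MR arrays, 1 was lower, and the differences spanned 4.05 on the log2 scale. The median span was 2.16 over the 1189 genes with 4 probe sets. Besides 1555826_at, none of the 4 was called.

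Partners of survivin went both ways. In SupB15-MR, INCENP, the scaffold of the complex, had 7.90 and 7.98, against 6.70 in SupB15, and rose by 1.25 (adjusted p = 0.0309 from limma). CDCA8, which encodes borealin, had 7.93 and 8.07 in SupB15-MR and 9.44 in SupB15, a fall with a log2 difference of -1.44 (adjusted p = 0.046 from limma) that was not called without the filter on low values (adjusted p = 0.0515). AURKB, the kinase of the complex, had 9.11 and 9.20 in SupB15-MR and 9.76 in SupB15 and was not called. The other probe set of AURKB went the other way, with a difference of 0.35. HASPIN, whose kinase marks the centromere for the complex, differed by 0.26. Of 11 mitotic genes 3 rose, none fell and 8 were not called, with a median difference of 0.72, beside 11.8% of all genes tested called higher and 9.05% lower. Those that rose were the cyclin CCNB1 (1.69), the proliferation marker MKI67 (1.68) and the checkpoint kinase BUB1 (1.25). The other probe set of CCNB1 had 0.24 (adjusted p = 0.0526 from limma), and MKI67 and BUB1 each had another probe set that was 2-fold or more lower in each SupB15-MR array. By the mean over their probe sets none of these 3 was called, at 0.96 for CCNB1, 0.19 for MKI67 and 0.84 for BUB1.

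BIRC7 (livin), an IAP best known from melanoma, had the largest difference of any IAP gene on the probe set chosen for it. Its only probe set, 220451_s_at, had 7.56 and 7.80 in SupB15-MR and 5.99 in SupB15, so that both were over 2-fold higher. The mean difference of 1.68 (standard error 0.179), or 3.21-fold, was not called (adjusted p = 0.0648 from limma). Under the prior taken from differing probe sets it was called (adjusted p = 1.04e-06 from limma). By Euclidean distance of the 3 log2 values, the genes most like it were ING2 (distance 0.17), LENG1 (0.18) and TMEM129 (0.18). With only 3 arrays, 111 of 19775 genes lay within a distance of 0.5.

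The promoter window of BIRC7 is shown because this gene had that difference and because MITF, the E-box factor of melanocytes, is known to drive BIRC7 in melanoma. It is the RefSeq sequence (GRCh38.p14, chr20:63235655-63235954, plus strand), from 250 bases before the annotated start to 50 after it. Capitals mark CACGTG, which begins 92 bases before the start, and CATGTG, which begins 27 bases before it.
BIRC7: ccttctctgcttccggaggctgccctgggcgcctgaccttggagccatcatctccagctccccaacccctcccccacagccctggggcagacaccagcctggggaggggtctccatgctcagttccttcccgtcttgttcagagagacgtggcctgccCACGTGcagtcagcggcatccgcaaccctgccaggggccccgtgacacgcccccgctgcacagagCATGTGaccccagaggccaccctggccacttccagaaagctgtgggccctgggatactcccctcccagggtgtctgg
Both motifs were searched on both strands. CACGTG was present in 7.26% and CATGTG in 11.1% of 35116 promoter windows of this length. RefSeq windows were held for 6 of the 8 genes, 13 in all, and CACGTG was found in 2 of the 13, that of BIRC7 and 1 of DIABLO. CATGTG was found in 4 of the 13, on BIRC3, BIRC7 and XIAP. The match is a feature of the letters alone.

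**Figure D2:**
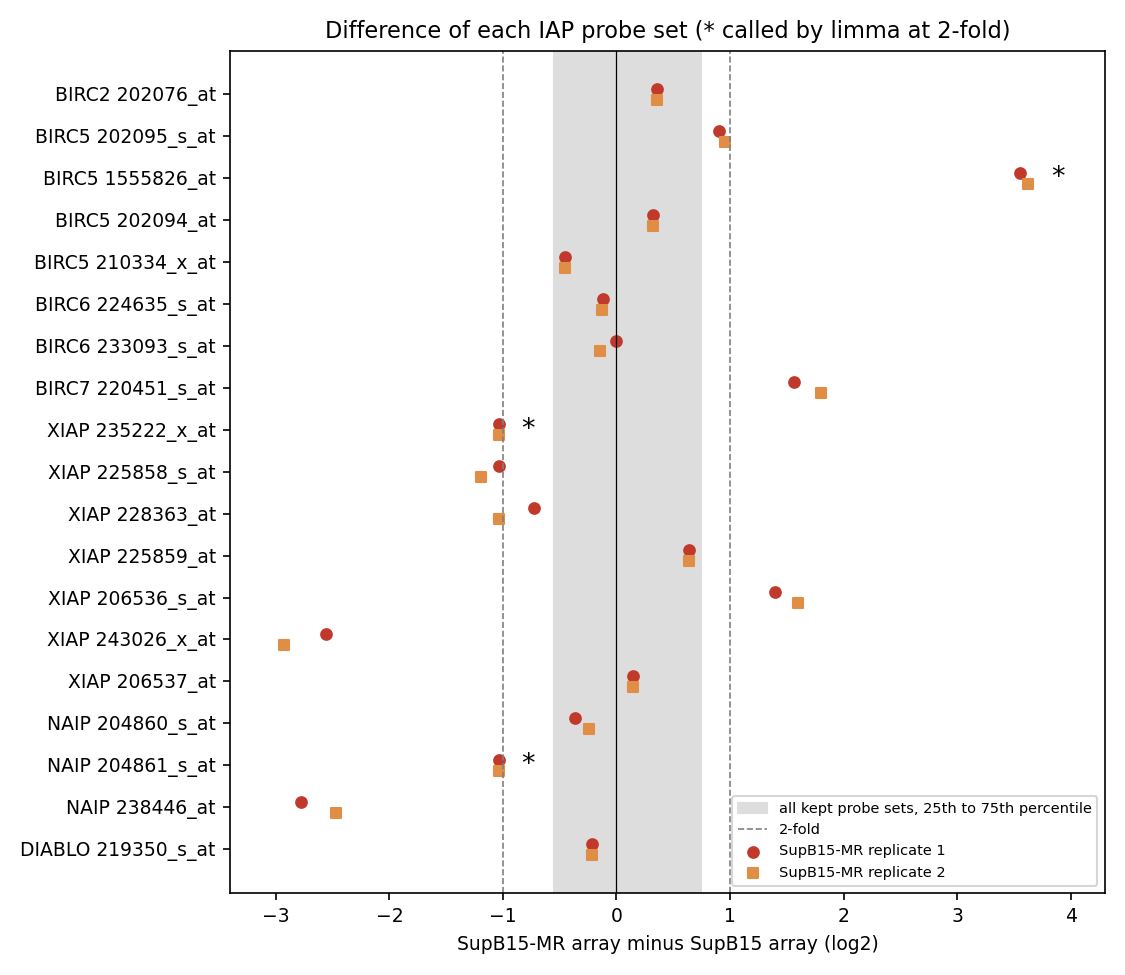
Difference of each SupB15-MR array from the SupB15 array (log2, horizontal axis) for the 19 IAP probe sets, grouped by gene. Dashed lines mark 2-fold, the grey band holds the 25th to 75th percentile of all kept probe sets, from -0.55 to 0.75, and asterisks mark the 3 called probe sets. Both SupB15-MR replicates lie on the same side of each dashed line for all probe sets but XIAP 228363_at.

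NAIP, the receptor that binds bacterial flagellin and secretion system proteins, was lower in both SupB15-MR arrays on all 3 of its probe sets. On 238446_at the values were 4.38 and 4.69 in SupB15-MR and 7.16 in SupB15, a difference of -2.62 (standard error 0.234, adjusted p = 0.0547 from limma), or 6.17-fold lower. Probe set 204861_s_at had 5.81 in both SupB15-MR arrays and 6.84 in SupB15. It was called as lower, with a log2 difference of -1.04 (adjusted p = 0.000645 from limma), and lay just past 2-fold. The probe set with the highest mean, 204860_s_at, had 6.68 and 6.80 in SupB15-MR and 7.04 in SupB15, a difference of -0.30 that was not called. The mean over the 3 was -1.32. RefSeq lists pseudogenes of NAIP too, with the same limit.

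None of the 5 genes of the NAIP inflammasome that passed the filter, of 6 listed, was called, beside 20.9% of all genes tested. The following values were picked after they had been seen. CASP1, the caspase that the inflammasome activates, had 7.22 and 7.95 in SupB15-MR and 9.75 in SupB15, a difference of -2.16 (adjusted p = 0.158 from limma), and in each SupB15-MR array 4 of its 5 probe sets lay 2-fold or more below SupB15. GSDMD, the pore-forming gasdermin, and IL1B, a cytokine released through such pores, had differences of -1.59 and -1.66. NLRC4, which assembles with NAIP, was the other way on 1 of its 2 probe sets, at 5.49 and 5.24 in SupB15-MR and 4.01 in SupB15. It was not called there, and its other probe set had a mean difference of 0.

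BIRC6, a very large IAP that also carries a ubiquitin-conjugating domain, had the smallest difference of the 7 genes on the probe set that represented it. Its probe set 224635_s_at had 8.66 and 8.65 in SupB15-MR and 8.78 in SupB15, and 233093_s_at had 8.34 and 8.20 in SupB15-MR and 8.34 in SupB15. The differences, -0.12 and -0.07, were 0.05 apart, beside a median range of 0.82 over the 4390 genes with 2 probe sets. UBA6, the E1 enzyme that charges BIRC6, differed by -0.02 on the probe set of highest mean, and its 7 probe sets spanned -0.95 to 0.78. Of the 3 genes listed with BIRC6 none was called on that probe set, beside 20.9% of all genes tested. KIF23, another of the 3, differed by -0.33. Its other probe set had -1.99 and was 2-fold or more lower in each SupB15-MR array.

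DIABLO had 9.13 in both SupB15-MR arrays and 9.34 in SupB15 on its only probe set. Its difference of -0.22 was under 2-fold and was not called (adjusted p = 0.00137 from limma on identical values, and 0.403 with the prior from differing probe sets). On the probe set of highest mean value, the other antagonists of XIAP did not share 1 direction. XAF1, an interferon-induced protein that binds XIAP, had 7.25 and 7.45 in SupB15-MR and 8.79 in SupB15. This difference of -1.44 was not called (adjusted p = 0.0631 from limma), but each of its 3 probe sets lay 2-fold or more below SupB15 in each SupB15-MR array. XAF1 was called lower on the probe set with the highest value in SupB15 (-2.75, adjusted p = 0.00341 from limma), by the mean over its probe sets (-2.20, adjusted p = 0.016) and with centred arrays (-1.63, adjusted p = 0.0461). HTRA2 (OMI), a mitochondrial protease with an IAP-binding end, had 8.64 and 8.99 in SupB15-MR and 7.72 in SupB15. This difference of 1.09 was not called (adjusted p = 0.149 from limma). The other probe set of HTRA2, the one highest in SupB15, was called lower (-1.03, adjusted p = 0.046 from limma). SEPTIN4, whose isoform ARTS binds XIAP, differed by -0.38, and its 3 probe sets spanned -0.38 to 0.32. CASP9, the initiator caspase held by XIAP, had 7.19 and 7.28 in SupB15-MR and 7.19 in SupB15. RIPK1 and TRAF2 were not analysed here.

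Around the cIAPs, 3 of 11 genes of TNF receptor 1 and linear ubiquitin signalling rose, none fell and 8 were not called, beside 11.8% of all genes tested called higher and 9.05% lower. TNFRSF1A, the receptor, had 8.57 in both SupB15-MR arrays and 6.99 in SupB15 and rose by 1.58 on its only probe set (adjusted p = 0.000645 from limma). RNF31, the catalytic subunit of the linear ubiquitin assembly complex, had 8.83 and 8.71 in SupB15-MR and 5.71 in SupB15 and rose by 3.06 (adjusted p = 0.0181 from limma), with 0.23 and no call on its other probe set. MAP3K7, the kinase TAK1, rose by 1.67, but the mean over its 4 probe sets, which spanned -1.04 to 2.07, was 0.66 and not called. The probe sets behind these 3 rises have names that end in _s_at or _x_at. With centred arrays the 3 genes were still called higher, and TRADD, of the same list, was called lower (-1.01). Without centring TRADD had -0.82 and was not called, and its 3 probe sets spanned -0.82 to 0.06.

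In the non-canonical NF-kappaB branch, which the cIAPs restrain, 1 of 5 genes rose, none fell and 4 were not called. Of all genes tested, 11.8% were called higher and 9.05% lower. CHUK, not called, had a difference of -2.12 on its only probe set (adjusted p = 0.0614 from limma). It was 2-fold or more lower in each SupB15-MR array and was called lower with centred arrays. NFKB2, also not called, differed by 1.25 (adjusted p = 0.0743 from limma). On 1 of its 3 probe sets it was 2-fold or more higher in each SupB15-MR array. TRAF3, the adaptor that brings NIK to the cIAPs, rose by 1.25 (8.14 and 8.04 in SupB15-MR, 6.84 in SupB15, adjusted p = 0.0352 from limma), and its other probe set had 2.65. By the mean of both, 1.95, TRAF3 was not called (adjusted p = 0.0637 from limma). MAP3K14, which encodes NIK, had 5.12 in both SupB15-MR arrays and 5.27 in SupB15. Of 9 NF-kappaB target genes tested, 2 rose, 1 fell and 6 were not called, beside 20.9% of all genes tested called. CD83 rose by 2.00 and CD40 by 1.58, although another of the 4 probe sets of CD40 had -1.30 and their mean, 0.45, was not called. NFKB1 fell, with a log2 difference of -1.38 (8.40 and 8.49 in SupB15-MR, 9.82 in SupB15, adjusted p = 0.0311 from limma).

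Over all 9 lists, 12 of 52 tested partner genes were called (10 higher and 2 lower), or 23.1%, beside 20.9% of all genes tested. Their median difference was 0.02, and 0 over all genes tested. The split depended on the probe set chosen. On the probe set with the highest value in SupB15, 6 partner genes were called higher and 6 lower. With the mean over all probe sets of a gene in place of 1 probe set, 4 were higher and 4 lower.

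**Figure D3:**
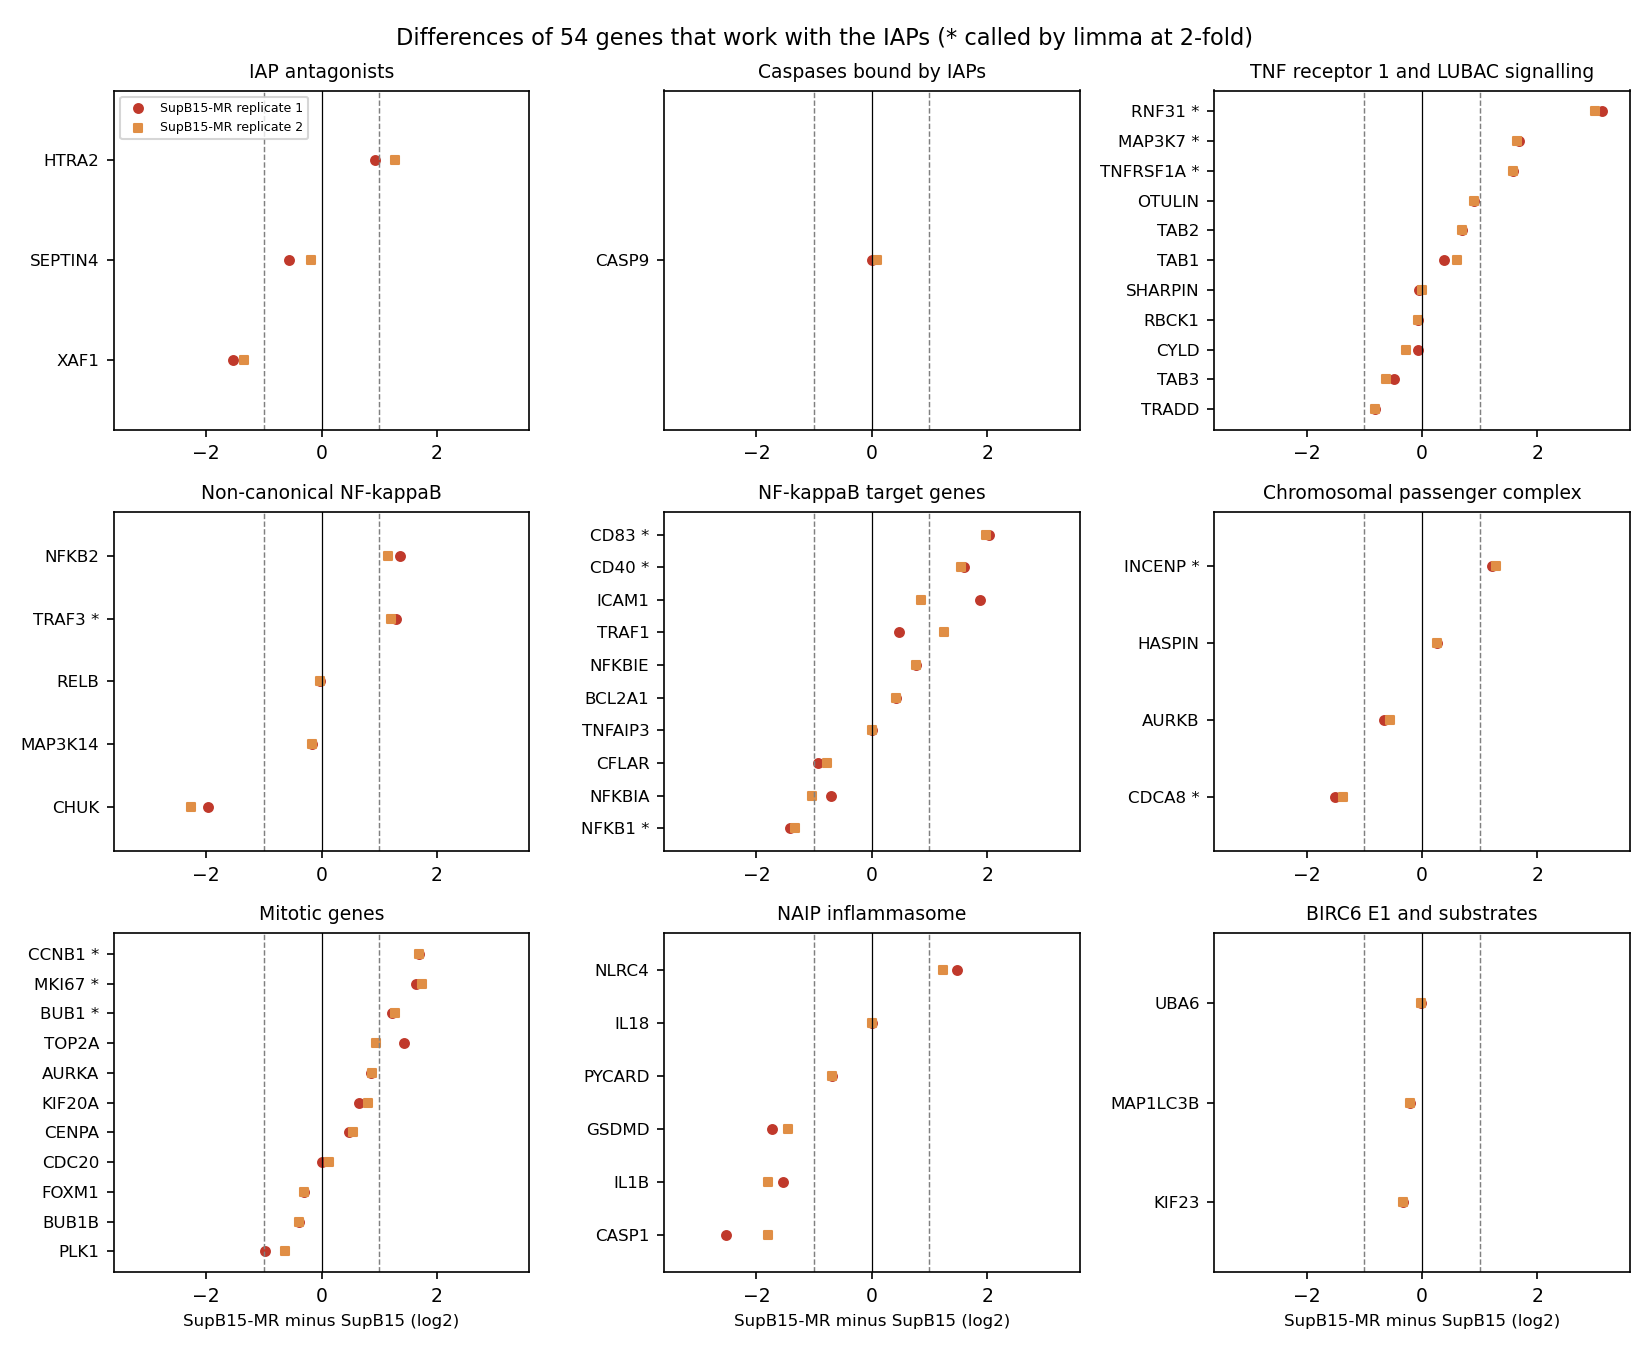
Difference of each SupB15-MR array from the SupB15 array (log2, horizontal axis) for 54 genes that work with the IAPs, in 9 lists, on the probe set with the highest mean. Dashed lines mark 2-fold and asterisks the 12 called genes. RNF31, with a mean difference of 3.06, lies farthest to the right.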

How the data were processed

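RNA of 2 SupB15-MR samples and 1 SupB15 sample was labelled with a NuGEN biotin kit for Affymetrix HG133plus2 arrays. The deposited log2 values were normalised and summarised per probe set by the authors with RMA in apt-probeset-summarize (version not given in the sources used here). Arrays have no depth, and their number (2 and 1) limits the precision. Of 54675 probe sets, 41097 had 1 gene, 1801 several and 11777 none in the platform's table, with symbols updated through gene identifiers. Removing those that never exceeded the 20th percentile (3.47) left 46034. The limma model (version 3.58.1, R 4.3.3) was fitted with the residual spread of identical values set to 0, Benjamini-Hochberg adjustment over all kept probe sets, and calls at an adjusted p of at most 0.05 and 2-fold. An ANOVA, the test named in the methods, was run as an alternative. Other alternatives changed the scaling, the filter, the variance prior, the probe set chosen for a gene and the replicates used.

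The members and gene lists were chosen with earlier results of these data known. The genes named are all IAP probe sets, 11 partners fixed by name of which 7 had a probe set, and up to 3 called genes with the largest difference in each other list, and the 3 genes nearest BIRC7. CASP1, GSDMD, IL1B, NLRC4, UBA6, KIF23, HASPIN, SEPTIN4, TRADD, CHUK and NFKB2 were added after their values had been seen. No column of the file was left unmapped.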

Additional observations from a re-analysis of the deposited data

How the results depend on the processing

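No paired analysis was possible because the SupB15 label carries no replicate number and the group holds 1 array. Counts of called probe sets changed with the variance model and the test. With the prior from differing probe sets, 16476 probe sets, 8 IAP probe sets, 2 IAP genes and 22 partner genes were called. The 1-way ANOVA with 1 residual degree of freedom called 0 of each after Benjamini-Hochberg adjustment, on the 27745 probe sets whose values were not identical, with 8886 of them and 3 of 11 IAP probe sets at an unadjusted p under 0.05. Without probe sets with identical values, limma called 6 IAP probe sets, 1 IAP gene (BIRC7, higher, since the XIAP probe set was left out) and 20 partner genes. Centring each array on its median gave 6 IAP probe sets (1 higher and 5 lower) and a median IAP gene difference of -0.32 in place of -0.12. As a count with no test, 2-fold or more in each SupB15-MR array were 15300 probe sets, 8 IAP probe sets, 2 IAP genes and 19 partner genes. The mean over all probe sets of a gene gave 2 called IAP genes (BIRC5 higher and NAIP lower, XIAP no longer) and a median of -0.10, and leaving out probe sets ending in _s_at or _x_at gave 1 called IAP gene (BIRC5, higher, in place of XIAP), 7 called partner genes and a median of -0.26 over 4 IAP genes. With 1 SupB15-MR array left out there was no test: 2-fold apart were 16459 to 16512 probe sets, 8 to 9 IAP probe sets, 2 IAP genes and 21 to 22 partner genes, and the median IAP gene difference was -0.13 to -0.12. Reversed in sign were XIAP 206537_at (-0.0441) and CASP9 (-0.15) with centring, CASP9 (-0.16) with the mean over its probe sets, and, with the probe set highest in SupB15, HTRA2 (-1.03), MAP3K7 (-0.0498), CD40 (-1.30), MKI67 (-1.06) and BUB1 (-0.90, as without _s_at and _x_at). The cause of these changes was not tested.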
